A study of Homo sapiens with 6 samples.

Results

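Prefoldin is a cytosolic chaperone complex, and its 6 subunit genes PFDN1, PFDN2, PFDN4, PFDN5, PFDN6 and VBP1 were followed in HK2 cells exposed to an organophosphate ester. All 6 were found by gene symbol among the 25808 genes of the deposited table, and 4 of them passed the filter on low values and were tested. HK2 is a cell line from the proximal tubule of the human kidney, made permanent in culture, and all libraries come from this 1 line. RNA-seq was done on 3 libraries from HK2 cells treated at confluence with 20 µM TBOEP for 48 hours, TBOEP being tris(2-butoxyethyl) phosphate, a plasticiser that also serves as a flame retardant. The comparison group was 3 libraries from HK2 cells labelled DMSO, the solvent, without a stated amount or duration. The series asks how TBOEP bears on renal metabolism. Since no label speaks of separate cultures, each p-value reflects the spread among these libraries, and that spread may be technical.

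Prefoldin is assembled from alpha-type subunits, VBP1 and PFDN5, and beta-type subunits, PFDN1, PFDN2, PFDN4 and PFDN6. Its coiled-coil arms hold newly made, unfolded actin and tubulin and pass them to the chaperonin CCT, the ring-shaped chamber in which these cytoskeletal proteins fold. PFDN2 and PFDN6 also belong to a second, prefoldin-like complex with URI1, UXT and PDRG1, which works with the R2TP chaperone. VBP1 was named for its binding to the tumour suppressor VHL, and PFDN5 is also known as MM-1, a protein that binds MYC.

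Start sites of 5 of the 6 genes were matched in RefSeq (GRCh38.p14), with 250 bases before and 50 after each start. Short stretches are shown because all 3 tested subunits with such a window, PFDN1, PFDN4 and VBP1, hold the same motif there, although PFDN1 alone of them was called. The motif AAGATGGC, the core of the YY1 site, was searched on both strands and lay just after the annotated start of PFDN1, PFDN4 and VBP1, in the same orientation as the gene. It is in capitals in these 30-base windows, at chr5:140303058-140303087 (minus strand), chr20:54208087-54208116 (plus strand) and chrX:155216469-155216498 (plus strand):
PFDN1: tacagtgcaccAAGATGGCcgcccccgtgg
PFDN4: agtccagtcccAAGATGGCggccaccatga
VBP1: ctcgcatccccAAGATGGCggccgttaagg
Of all genes with such a window, 3.52% held this motif on either strand. PFDN1 also held the NRF1 motif, searched on both strands with any base at 1 inner position, at a pair of places, 73 bases before the start and at base 4 after it, at chr5:140303155-140303184 and chr5:140303079-140303108 (minus strand), again in capitals:
PFDN1 upstream: tccaactcatGCGCAGGCGCagaagaaaga
PFDN1 start: aactcccactGCGCAGGCGCttacagtgca
The NRF1 motif was in 6.98% of all genes' windows and in no other subunit's. Of the 5 subunits PFDN6 alone held the ETS motif CCGGAAGT, which 4.95% of genes had, and PFDN4 and VBP1 held CCAAT, which 39.7% had. The heat-shock element, found in 0.608% of genes, was matched in none of the 5 windows. The motifs searched do not overlap in the stretches shown. A match of letters is a description and not a shown binding site. The YY1 motif also contains ATG, the letters of a start codon, and where translation starts in these genes was not looked up.

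PFDN1, a beta-type subunit, was the prefoldin gene that rose. It (ENSG00000113068, on chromosome 5) stood at 84.5, 91.1 and 90.3 FPKM in TBOEP replicates 1 to 3, against 66.6, 66.9 and 64.7 FPKM in DMSO replicates 1 to 3. Every TBOEP library lay above every DMSO library, and the ratio of the group means was 1.34. On the log2(FPKM + 1) scale used for all tests PFDN1 was higher by 0.42 ± 0.04 (SE, 95% interval 0.34 to 0.50, n = 3 per group), with a limma adjusted p of 2e-05 after Benjamini-Hochberg adjustment over all 9631 tested genes. FPKM counts the fragments assigned to a gene, scaled by its length and by the size of the library, and the PFDN1 values rested on 6322 to 6839 reads per TBOEP library and 4825 to 5485 per DMSO library.

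The PFDN1 call ended under 1 of the alternatives tried. A smooth surface of transcript GC content and length, fitted to all tested genes of each library, gave PFDN1, with 49.3% GC and a transcript of 1352 bases, a difference of 0.37 by itself. With that surface subtracted from each library PFDN1 was at 0.05 ± 0.03 and was not called (limma adjusted p = 0.254). What part GC content and length have in the rise was not tested further.

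PFDN2, the most abundant subunit and a member of both prefoldin complexes, did not pass the test. It (ENSG00000143256, on chromosome 1) was at 199.7, 206 and 219 FPKM in TBOEP and at 179, 203 and 206 FPKM in DMSO. The groups overlapped, with DMSO replicate 1 the lowest of the 6 libraries. The difference was 0.09 ± 0.06 with a 95% interval of -0.05 to 0.23 (n = 3 per group, limma adjusted p = 0.238), so a rise as large as that of PFDN1 lies outside the interval.

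PFDN4 (ENSG00000101132, on chromosome 20), another beta-type subunit, was at 70.7, 73.7 and 72.4 FPKM in TBOEP and at 70.6, 66.5 and 71.2 FPKM in DMSO. The groups overlapped here too, and the libraries were spread over a narrow range. The difference was 0.06 ± 0.03 (95% interval -0.02 to 0.14, n = 3 per group, limma adjusted p = 0.201). The sign turned to -0.0031 when each library was centred on its median, and quantile normalization brought PFDN4 past the threshold at 0.09 (limma adjusted p = 0.0498). With the GC and length surface subtracted PFDN4 was at 0.08 ± 0.03 and was not called (limma adjusted p = 0.0552). In these values PFDN1, PFDN2 and VBP1 were at 0.05, 0.06 and 0.04.

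VBP1 (ENSG00000155959, on the X chromosome), the alpha-type subunit measured at an appreciable level, was at 30.3, 31.1 and 32.5 FPKM in TBOEP and at 27.7, 27.7 and 31.3 FPKM in DMSO. Only DMSO replicate 3 reached into the range of the TBOEP libraries. The difference was 0.11 ± 0.05 (95% interval -0.01 to 0.23, n = 3 per group, limma adjusted p = 0.103). Without DMSO replicate 3 it was 0.17 and was called (limma adjusted p = 0.00955).

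In all, 1 of the 4 tested subunits was called higher and 0 lower. Of all 9631 tested genes 53.8% were called (5178 genes), 26.9% higher and 26.9% lower, so 1 call among 4 genes is near that background. The libraries did not overlap with TBOEP higher in 1 of the 4 subunits, PFDN1, and with TBOEP lower in 0, against 30.5% and 31.8% of all tested genes. The median difference of the 4 subunits was 0.10, against -0.02 over all tested genes. Of the called genes 50.1% were higher, and 38.6% were higher with each library centred on its median. The FPKM of all genes summed to 361398 to 363918 in the TBOEP libraries and 378135 to 381855 in the DMSO libraries. Libraries were not rescaled to a common sum for the main test, so small differences depend on the scaling.

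PFDN5 and PFDN6 were listed at or near 0 in every library, although both are obligatory parts of the complex. PFDN5 (ENSG00000123349), the other alpha-type subunit, was listed at 0.13, 0.063 and 0.045 FPKM in TBOEP, from 19, 9 and 6 reads, and at 0.096, 0 and 0.041 FPKM in DMSO, from 15, 0 and 6 reads. PFDN6 (ENSG00000204220), a beta-type subunit, was listed at 0 in TBOEP replicates 1 and 2 and at 0.021 FPKM in TBOEP replicate 3, from 1 read, and at 0 in all 3 DMSO libraries. The read numbers of these genes are the smallest whole numbers that the values allow, and the true ones may be multiples of them. Whether these levels give the amount of mRNA in the cells was not tested, and they should not be read as such. RPS18 and TUBB, genes that every cell uses, were also listed low in most or all libraries. Both were picked after their values were seen, and both lie on the chromosome of PFDN6, not that of PFDN5. The ribosomal protein gene RPS18 was listed at 4.15, 0.172 and 0.101 FPKM in TBOEP and at 0.128, 0.0813 and 0.997 FPKM in DMSO. TUBB, a major beta-tubulin gene, was listed at 0.19 to 0.26 FPKM in TBOEP and at 0.13 to 0.19 FPKM in DMSO.

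PFDN6, RPS18 and TUBB all lie on chromosome 6 in GENCODE 29. Of the 10 protein-coding genes nearest to PFDN6 in gene order, 6 had a value here and 0 of these reached a median of 1 FPKM over the 6 libraries, the highest being DAXX at 0.211 FPKM. The neighbours whose exons overlap those of PFDN6, WDR46 and RGL2, were at no more than 0.037 and 0.013 FPKM in any library. PFDN6 shares 34.9% of its annotated exon bases with other genes, against 0% in PFDN5. PFDN5 on chromosome 12 had a different surrounding: 5 of 7 neighbours with a value reached a median of 1 FPKM, and MFSD5, a nearby gene, was at 29.2 to 30.7 FPKM in TBOEP and at 34.9 to 37.9 FPKM in DMSO. ESPL1, the gene next to PFDN5, differed by 0.05 between TBOEP and DMSO (limma adjusted p = 0.662). On the other side of PFDN5 the values were less even. C12orf10, the next protein-coding gene there, had no value. AAAS, beyond it, was at 7.64, 5.02 and 3.34 FPKM in TBOEP and at 11.5, 0.353 and 0.264 FPKM in DMSO. Around the tested subunits such neighbours reached it in 3 of 10 cases for PFDN1, 7 of 10 for PFDN2, 5 of 7 for PFDN4 and 2 of 6 for VBP1. Whether position or shared sequence bears on the listed zeros was not tested.

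**Figure D1:**
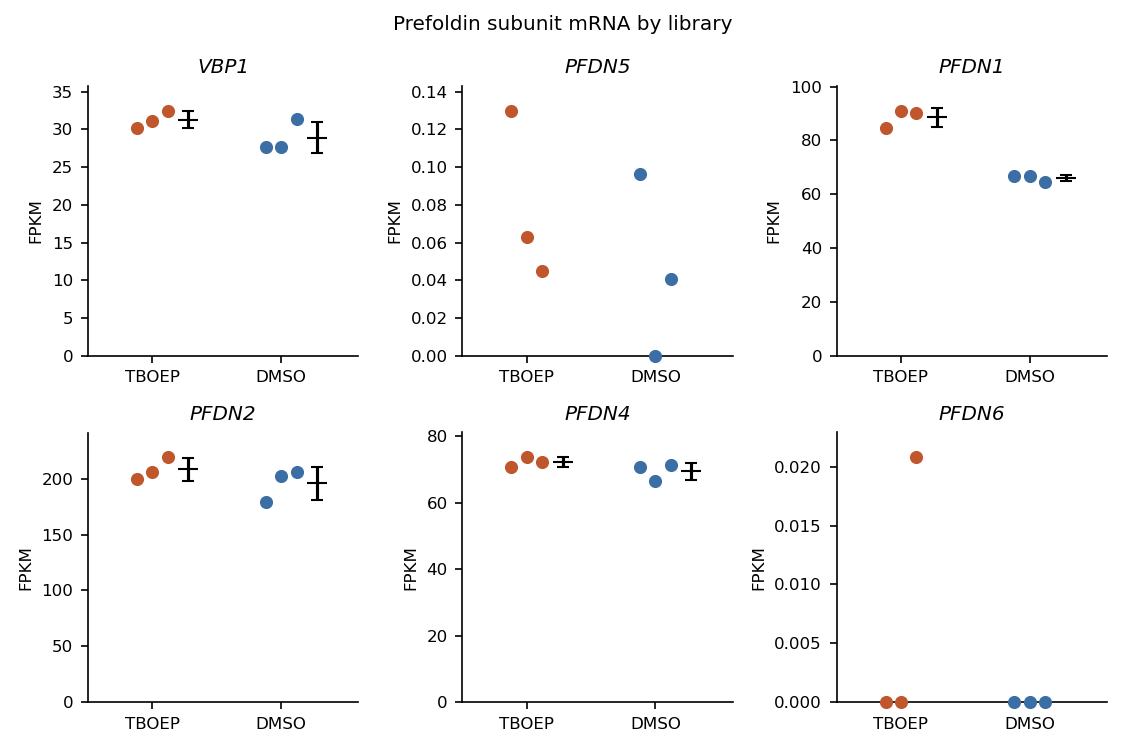
FPKM of each prefoldin subunit gene (vertical axis, linear from 0, a separate scale per gene) in the 3 TBOEP libraries (left) and 3 DMSO libraries (right), 1 point per library. Bars give mean and SD and are left out for PFDN5 and PFDN6, which were listed at or near 0; the groups part in PFDN1 and overlap in PFDN2, PFDN4 and VBP1.

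**Figure D2:**
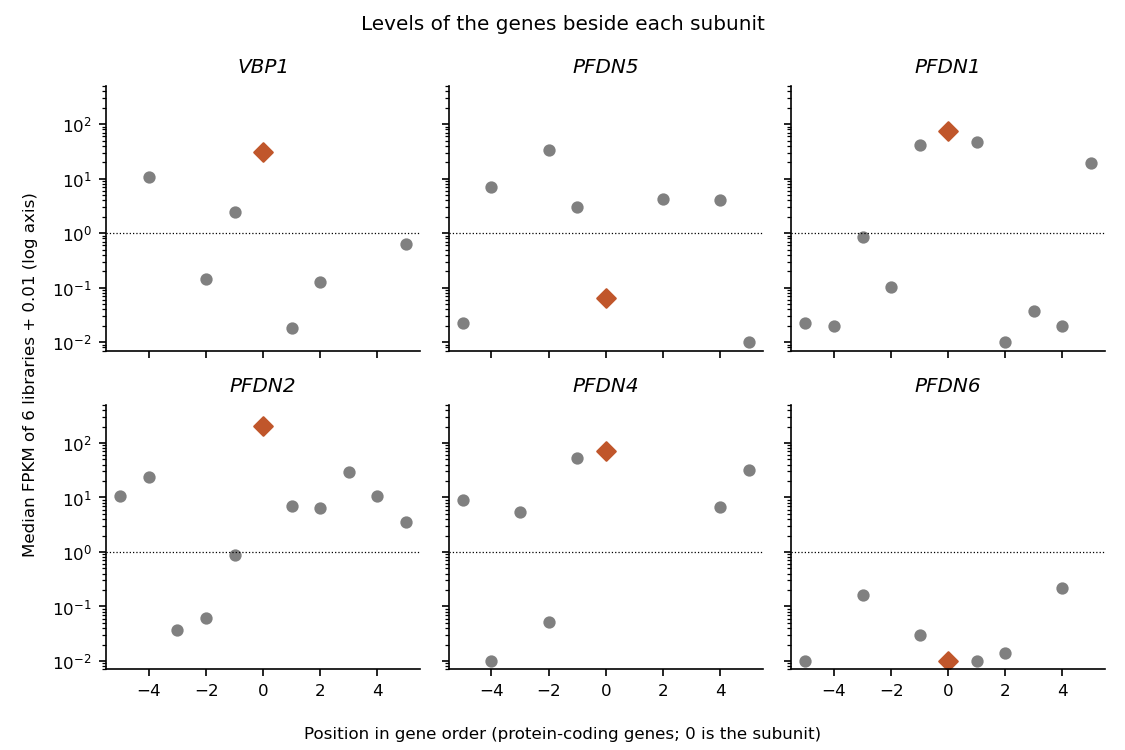
Median FPKM of the 6 libraries plus 0.01 (log axis) for each subunit (diamond, position 0) and for those of its 5 protein-coding neighbours on either side, in GENCODE 29 gene order, that had a value (grey points); the dotted line marks 1 FPKM. All points around PFDN6 lie below the line, while PFDN5 is low between neighbours that mostly lie above it.

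The level of the subunits relative to each other is given per length, with the gene lengths that the deposited FPKM imply: 2152 bases for PFDN1, 621 for PFDN2, 1743 for PFDN4 and 1948 for VBP1. In TBOEP the order was PFDN2 (208 ± 9.98 FPKM), PFDN1 (88.6 ± 3.59), PFDN4 (72.3 ± 1.51) and VBP1 (31.3 ± 1.14; mean ± SD, n = 3), and no neighbours in this order overlapped. In DMSO it was PFDN2 (196 ± 14.7 FPKM), PFDN4 (69.4 ± 2.57), PFDN1 (66.1 ± 1.18) and VBP1 (28.9 ± 2.09; n = 3). PFDN4 and PFDN1 overlapped in DMSO, PFDN4 being the higher in 2 of 3 libraries, and in TBOEP PFDN1 was the higher in 3 of 3. This change of order was absent with the GC and length surface subtracted. There the mean log2 ratio of PFDN1 over PFDN4 was 0.10 in TBOEP and 0.12 in DMSO.

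In the ratio of subunits within a library, a factor common to all genes of that library cancels, apart from the pseudocount. On the log2(FPKM + 1) scale, the log2 ratio of PFDN1 over PFDN4 was 0.25, 0.30 and 0.31 in the TBOEP libraries and -0.08, 0.01 and -0.14 in the DMSO libraries, so the groups did not overlap, and the difference was 0.36. With the GC and length surface subtracted, an alternative added after the data were seen, this ratio was 0.07, 0.11 and 0.10 in TBOEP and 0.11, 0.16 and 0.10 in DMSO, so the groups overlapped and the difference was -0.03. PFDN1 over PFDN2 differed by 0.33 and PFDN1 over VBP1 by 0.31 in the same direction, also without overlap, and by -0.0031 and 0.01 with overlap in the corrected values. In each of these 3 ratios, uncorrected, the two-sided exact permutation p was 0.1, the smallest that 3 libraries against 3 can give, and 0.2 after Benjamini-Hochberg adjustment over the 6 ratios compared. The ratios without PFDN1 had differences nearer 0: PFDN2 over PFDN4 by 0.03 (exact permutation p = 0.9, adjusted 1), PFDN2 over VBP1 by -0.02 (exact permutation p = 1, adjusted 1) and PFDN4 over VBP1 by -0.06 (exact permutation p = 0.4, adjusted 0.6).

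Genes next to and overlapping the subunits were read for shared signal, since the labels name a pair of library kits and do not settle whether counting used strand. PFDN1 overlaps CYSTM1 on the opposite strand, in 39 of its 2156 annotated exon bases. CYSTM1 was at 46.3, 47.2 and 46.1 FPKM in TBOEP and at 34.8, 33.9 and 34.9 FPKM in DMSO, a rise of 0.42 ± 0.03 (n = 3 per group, limma adjusted p = 7.26e-06) that is as large as that of PFDN1. HBEGF, a growth factor gene on the other side of PFDN1 and on its strand, differed by 0.06 ± 0.03 (limma adjusted p = 0.156). NIT1, which overlaps PFDN2 in 26 bases on the opposite strand, rose by 0.21 ± 0.05 (limma adjusted p = 0.00841). KLHDC9, on the other side of PFDN2, was below the filter. CYP24A1, the vitamin D 24-hydroxylase gene beside PFDN4, fell by 0.21 on the log2 scale (limma adjusted p = 4.11e-04). The pseudogene PFDN1P1 was listed at 0 in the 3 TBOEP libraries and in DMSO replicate 1, and had a smallest possible number of 1 read in DMSO replicates 2 and 3.

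The genes whose course over the 6 libraries was most like that of each tested subunit were found by the Euclidean distance between log2(FPKM + 1) profiles centred on their own means. For PFDN1 they were CCDC115, a factor of proton pump assembly, at a distance of 0.03 and VCP, an ATPase that extracts ubiquitinated proteins, at 0.04. VCP was at 28.9, 30.8 and 30.5 FPKM in TBOEP and at 23.1, 22.6 and 21.96 FPKM in DMSO. For PFDN2 they were HOXA10-AS, which cannot be told from its sense partner without strand, and CDC26 of the anaphase-promoting complex, both at 0.06 to 0.07. For PFDN4 they were CACUL1 and TJAP1, both at 0.04, and for VBP1 PRKAR2A and SOX4, both at 0.06.

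CCT takes clients from prefoldin. Of 7 measured chaperonin subunits 7 were called higher and 0 lower (6 higher and 1, TCP1, lower once corrected for GC and length), where 26.9% of all tested genes were called higher, with a median difference of 0.74, against 1 of 4 prefoldin subunits and a median of 0.10; the difference between these lists was not tested. CCT2 was at 58.5, 58.2 and 56.7 FPKM in TBOEP and at 26.6, 27.2 and 27.2 FPKM in DMSO, a difference of 1.07 ± 0.03 (limma adjusted p = 5.64e-08, n = 3 per group). CCT3, CCT5 and CCT4 were higher by 1.57, 1.06 and 0.74. Once corrected for GC and length, CCT2, CCT3, CCT5 and CCT4 were higher by 0.74, 1.22, 0.94 and 0.47. CCT6A and CCT7 were then higher by 0.21 and 0.06. In those values 0 prefoldin subunits were called. The summed FPKM of the 7 subunits was 641 to 647 in TBOEP and 386 to 389 in DMSO, and that of the prefoldin subunits was 385 to 414 in TBOEP and 344 to 373 in DMSO. TCP1 was called higher by 0.14, was not called with libraries centred on their medians (limma adjusted p = 0.0659) and stood at -0.11 once GC content and length were corrected for (limma adjusted p of that value 0.0188).

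Of the actins and tubulins, the clients of prefoldin and CCT, 6 of 11 tested genes were called higher, 1 was called lower and 4 were not called, with a median difference of 0.15. Of all tested genes 53.8% were called, 26.9% higher and 26.9% lower. The share called in either direction is near that background, but the calls in this list were mostly higher. That imbalance was not tested. The alpha-tubulin gene TUBA1A was at 106, 104 and 106 FPKM in TBOEP and at 59.1, 59.5 and 57.1 FPKM in DMSO, higher by 0.83 ± 0.03 (limma adjusted p = 1.52e-07, n = 3 per group). TUBA1B, TUBB6 and TUBA4A rose by 0.50, 0.26 and 0.26. ACTB, the most abundant of them, averaged 2241 FPKM in TBOEP and 2323 FPKM in DMSO, a difference of -0.05 ± 0.03 (limma adjusted p = 0.116), which was 0.13 after quantile normalization and -0.11 and called with median centring (limma adjusted p = 0.00672). ACTB was also called lower in the corrected values, at -0.12 (limma adjusted p = 0.00238), and by limma-voom, at -0.05 (adjusted p = 0.0204). The other actin gene of the list, ACTG1, went the opposite way. ACTG1 was called higher by 0.37 (limma adjusted p = 6.3e-04), stood at 0.39 in the corrected values and kept its call under all 16 alternatives. It was listed far below ACTB, with means of 23.2 FPKM in TBOEP and 17.8 FPKM in DMSO. Whether reads were split between these 2 actin genes was not tested. TUBB4B fell by 0.17 on the log2 scale (limma adjusted p = 7.0e-04), and it was not called under quantile normalization or in the corrected values. Alpha- and beta-tubulin genes are close copies, and reads may be split between them.

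The tubulin cofactors, which finish tubulin folding after CCT, had 2 of 5 tested genes called higher and 2 lower, where 26.9% of all tested genes were called in each direction. TBCC rose by 0.43 and TBCB fell by 0.27 on the log2 scale, and both kept their calls under all 16 alternatives. TBCA rose by 0.24 (limma adjusted p = 0.016), but was not called under 3 alternatives: with no filter, without TBOEP replicate 3 and without DMSO replicate 1. The small GTPase gene ARL2 fell by 0.13 on the log2 scale (limma adjusted p = 0.0422), and was not called under 7 alternatives, among them no trend, no filter, limma-voom and leaving out TBOEP replicate 1 or 3 or DMSO replicate 1 or 2. ARL2 was called higher, by 0.20, once GC content and length were corrected for (limma adjusted p = 0.00566). Of the 3 phosducin-like genes, whose proteins modulate CCT, PDCL rose by 0.46 (limma adjusted p = 3.9e-04), while PDCL3 differed by 0.09 (limma adjusted p = 0.0695) and TXNDC9 by -0.14 (limma adjusted p = 0.0648). Both of these were called lower in the corrected values, PDCL3 at -0.28 and TXNDC9 at -0.26. Counting that correction, TXNDC9 was called lower under 7 of the 16 alternatives. PDCL3 was called higher under 1 other alternative.

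The prefoldin-like and R2TP genes, which share PFDN2 and PFDN6, had 3 of 8 tested genes called higher, 3 lower and 2 not at all, beside 26.9% of all tested genes in each direction. RUVBL1, an ATPase of R2TP, was at 25.7, 25.9 and 26.9 FPKM in TBOEP and at 14.1, 14.2 and 13.8 FPKM in DMSO, higher by 0.85 ± 0.04 (limma adjusted p = 4.19e-07, n = 3 per group). RUVBL2, its partner ATPase, fell by 0.25 on the log2 scale and POLR2E, an RNA polymerase subunit bound by the complex, by 0.32. PDRG1, a beta-type prefoldin-like subunit, was higher by 0.37 ± 0.04 (limma adjusted p = 8.74e-05), a size close to that of PFDN1, and like PFDN1 it lost its call in the corrected values, where it was at 0.00 (limma adjusted p = 0.999). UXT was called higher by 0.14 (limma adjusted p = 0.0196), but not under 6 alternatives: no trend, median centring (limma adjusted p = 0.139), no filter, and without TBOEP replicate 1, TBOEP replicate 3 or DMSO replicate 1. URI1, the scaffold of the complex, differed by 0.09 ± 0.05 (limma adjusted p = 0.147).

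Of the partners of single subunits, VHL, bound by VBP1, was called higher by 0.20 ± 0.06 (limma adjusted p = 0.0148). It was not called under 5 alternatives: quantile normalization (limma adjusted p = 0.0717), median centring, no filter, without DMSO replicate 1, and the GC and length correction, where it was at 0.05 (limma adjusted p = 0.533). MYC, bound by PFDN5, averaged 37.1 FPKM in TBOEP and 37.2 FPKM in DMSO (limma adjusted p = 0.904), and was called higher by 0.16 in the corrected values. TRIM28, a corepressor that PFDN5 recruits, fell by 0.21 on the log2 scale (limma adjusted p = 0.00104) and was at 0.00 in the corrected values (limma adjusted p = 0.93).

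**Figure D3:**
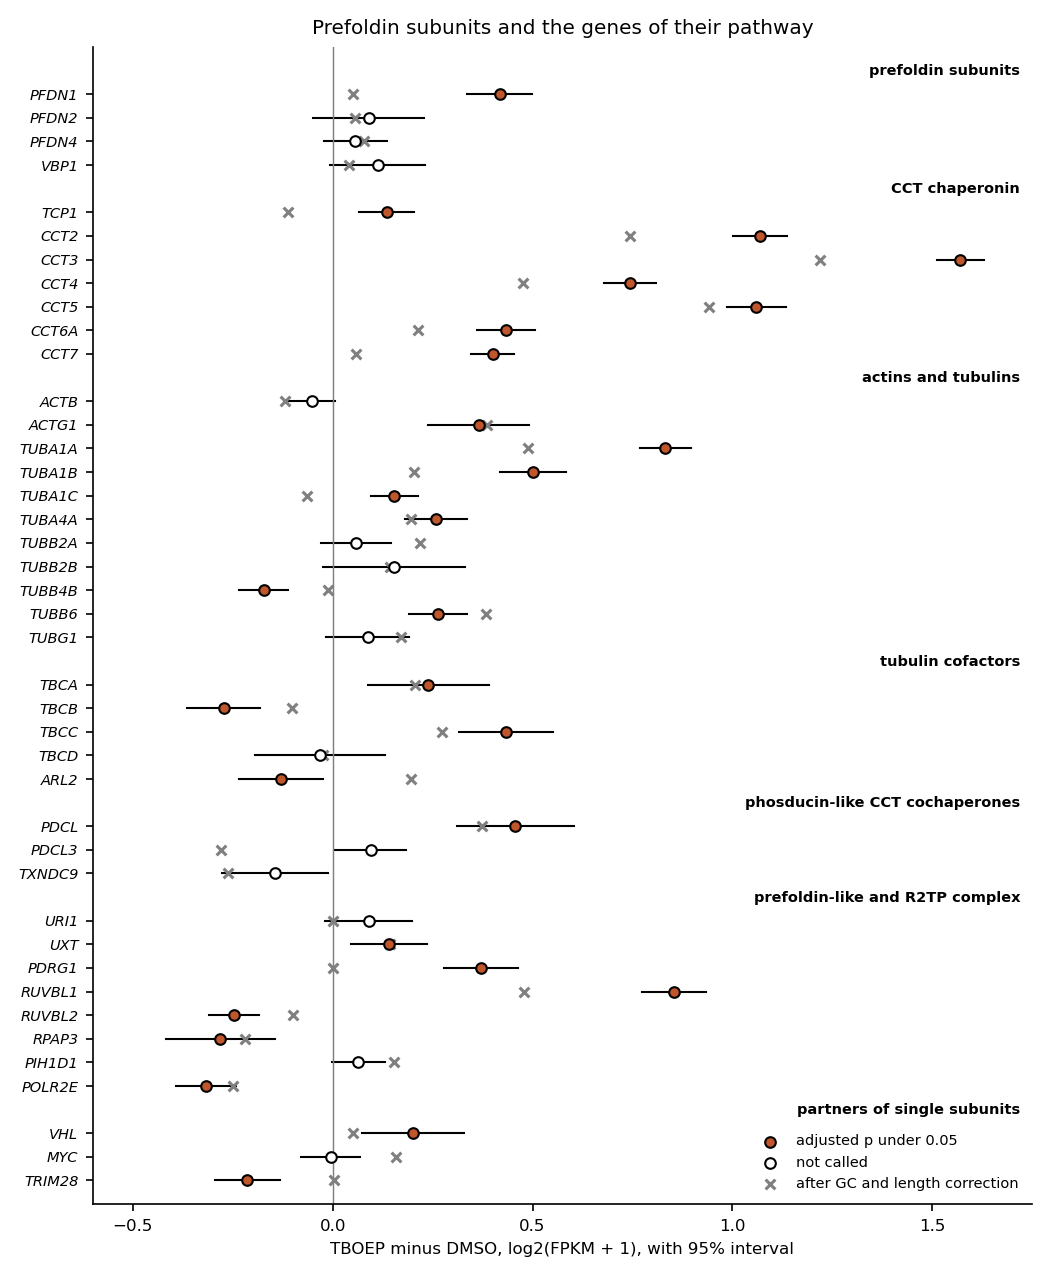
Difference of TBOEP minus DMSO in log2(FPKM + 1) with its 95% interval (horizontal axis) for each tested prefoldin subunit and each tested gene of the pathway lists (rows); filled points passed a limma adjusted p of 0.05, and crosses give the value after the GC and length correction. PFDN1 stands at 0.42 apart from the 3 other subunits and its cross lies with theirs, while CCT2 to CCT5 lie at 0.74 and above.

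**Figure D4:**
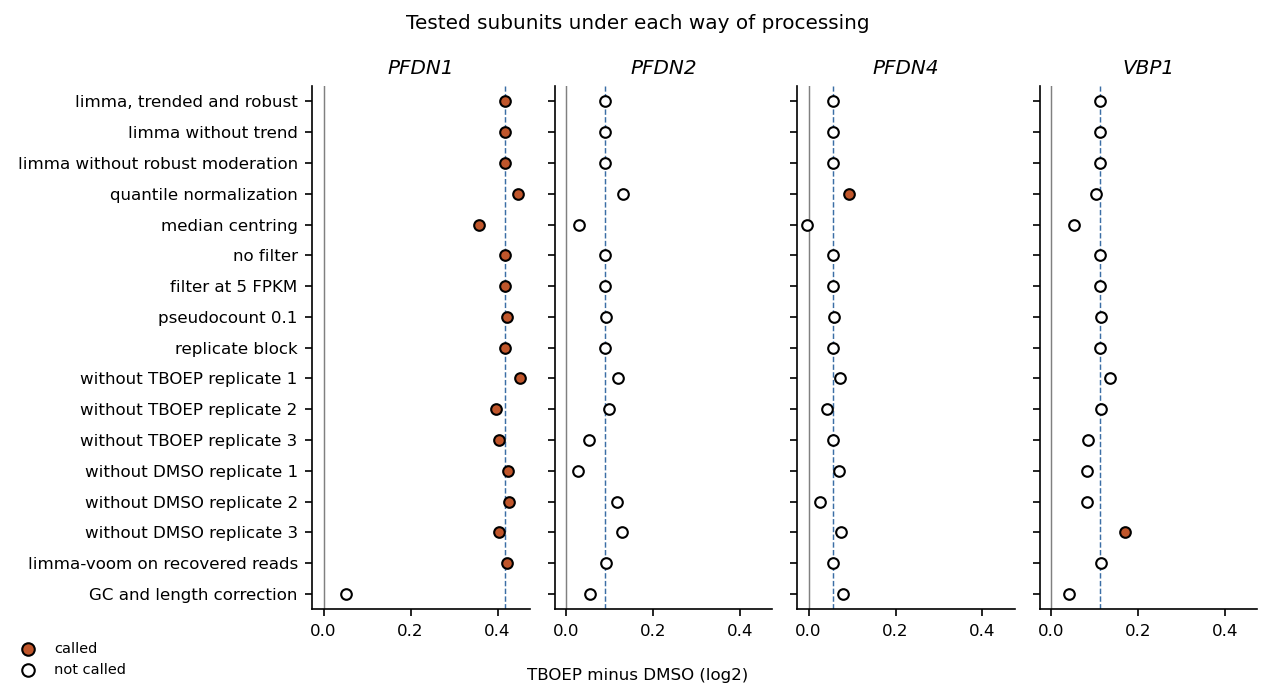
Difference of TBOEP minus DMSO (log2, horizontal axis) of the 4 tested subunits under each way of processing (rows), with filled points where the adjusted p was under 0.05 and the dashed line at the value reported in the text. PFDN1 was called in every row except the GC and length correction, and no other subunit was called in more than 1 row.

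The labelled cell type was checked on its markers. PAX8, a transcription factor of renal epithelium, was at 36.5 to 36.9 FPKM in TBOEP and at 35.6 to 38.4 FPKM in DMSO, and the epithelial keratins KRT8 and KRT18 were above 90 FPKM in every library. EPCAM was at 14.3 to 15.0 FPKM in TBOEP and at 11.8 to 14.3 FPKM in DMSO. The brush border enzyme ANPEP was at or near 0, PAX2 was under 0.12 FPKM and GGT1 under 0.84 FPKM in every library. Of the 8 genes of this renal list 5 were tested: KRT8 and CDH6 were called lower, by -0.31 (limma adjusted p = 1.64e-05) and -0.17 (limma adjusted p = 0.0142), KRT18 was called higher by 0.22 (limma adjusted p = 3.53e-04), and PAX8 and EPCAM were not called. The list summed to 436 to 443 FPKM in TBOEP and 485 to 491 FPKM in DMSO. Of the fibroblast list, COL1A1 was the one gene tested and was called lower, by -0.30 (limma adjusted p = 4.8e-04). The list summed to 22.7 to 22.9 FPKM in TBOEP and 26.8 to 29.6 FPKM in DMSO, most of it from COL1A1. COL1A2, COL3A1 and PDGFRA had no value. PDGFRB, DCN and LUM were under 0.8 FPKM, and the 2 endothelial genes with a value, PECAM1 and CDH5, under 0.05 FPKM in every library. The leukocyte list summed to 1.24 to 1.35 FPKM in TBOEP and 1.2 to 1.71 FPKM in DMSO. The part of these markers in the PFDN1 result was not tested. In RNA from whole cultures, fewer cells of a type and less RNA per cell cannot be told apart.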

How the data were processed

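The authors deposited 1 table of FPKM, with a column per library and already scaled for gene length and library size; the unit was inferred from the values because the header names none. Per the submitters' processing notes, Trimmomatic and HISAT2 were used; a counter, genome build or annotation is not given in the sources used here. The labels name a VAHTS and a TruSeq Stranded library kit. In each of 25808 genes the 6 FPKM were whole multiples of 1 step within 0.0001 reads, which gave 32386329 to 38049498 recovered reads per library. Symbols matched 25795 IDs. The test was limma 3.58.1 in R 4.3.3, trended and robust, two-sided and without covariates, on log2(FPKM + 1) of genes reaching 1 FPKM in 3 or more of the 6 libraries, with a Benjamini-Hochberg adjusted p of 0.05 as threshold. This scale understates the change of low genes. GENCODE 29 gave GC content and length for 98.9% of tested genes, and mgcv 1.9.3 fitted their surface. Replicates differed by more than sampling noise (chi-square per degree of freedom 7.73 to 9.38). The subunits and lists were chosen with earlier results of these data known. Genes were named by a rule: the subunits, the genes beside them, their pseudogenes, the 2 most alike genes, and of each list up to 4 with the smallest p. ACTB, ACTG1, TCP1, CCT6A, CCT7, TUBB, TUBB4B, UXT, URI1, MFSD5, AAAS, C12orf10, DAXX and RPS18 were added after their values were seen. So were the counts over 5 neighbours on each side. Alternatives were limma without trend or without robust moderation, other scaling (quantiles or medians), other filters (none, or 5 FPKM), another pseudocount (0.1), a replicate block, leaving out single libraries, limma-voom on the recovered reads, and the GC and length correction.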

Additional observations from a re-analysis of the deposited data

How the results depend on the processing

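The count of called genes, 5178 of 9631 tested, was 3714 of 5205 with a filter at 5 FPKM, 4105 of 25808 with no filter and 5526 of 9631 with limma-voom. It was 4556 to 4774 with 1 library left out. The counts stayed within 1.5 times under every alternative tried, but the share called did not, since the filters changed how many genes were tested. PFDN1 was at 0.40 to 0.45 with 1 library left out, PFDN2 at 0.03 to 0.13, PFDN4 at 0.03 to 0.07 and VBP1 at 0.083 to 0.17. With the replicate number as a block 4791 genes were called, PFDN1 was at 0.42 (limma adjusted p = 3.2e-04), and no other subunit was called. Same-numbered libraries deviated together by correlations of 0.11, -0.03 and 0.01, and only those of replicate 1 correlated best with their own number. The labels do not say whether a number is a shared batch, and such correlations cannot settle it. The 1 subunit called higher became 2 after quantile normalization, 0 after the GC and length correction and 1 to 2 with 1 library left out, where PFDN1 was at 0.052 after the correction and PFDN4 at 0.094 after quantile normalization and at -0.0031 with median centring. The cause was not tested. PFDN5 and PFDN6 were below the filter; with no filter neither was called (limma adjusted p = 0.589 and 0.629).

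Counts of called genes in the pathway lists moved by over 1.5 times as follows. After the GC and length correction 1 CCT gene, 1 tubulin cofactor, 2 phosducin-like genes and 0 partners of single subunits were called lower. After quantile normalization 0 actins and tubulins were called lower, 1 phosducin-like gene was lower and 0 partners were higher. With median centring these counts were 2, 1 and 0. With limma-voom 2 actins and tubulins, 1 cofactor and 1 phosducin-like gene were called lower. With no filter 1 cofactor was higher, 1 was lower and 0 partners were higher. Without trend 1 cofactor was lower, and with a filter at 5 FPKM or the replicate block 1 phosducin-like gene was lower. With 1 library left out, 1 to 2 cofactors were higher and 1 to 2 lower, 1 to 2 phosducin-like genes were higher and 0 to 1 lower, and 0 to 1 partners were higher. The 6 ratios between subunits moved by less than the spread between replicates under other scaling, another pseudocount and with 1 library left out. With the GC and length correction, added after the data were seen, the differences of PFDN1 over PFDN2, PFDN4 and VBP1 were -0.0031, -0.027 and 0.011, and that of PFDN4 over VBP1 was 0.038. At the depth of these libraries the levels of PFDN5 and PFDN6 rest on few reads, with smallest possible numbers of at most 19 and 1 per library.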

Other observations

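The low levels around PFDN6 reached along chromosome 6 as far as TUBB, as seen after the values of both genes were known. From TUBB to PFDN6 GENCODE 29 lists 121 protein-coding genes, of which only 48 had a value. Of these 48, 5 reached a median of 1 FPKM over the 6 libraries (10.4%). Of 923 other protein-coding genes of chromosome 6, 727 had a value, and 364 of these 727 reached that median (50.1%). No test was made of this stretch, and neighbouring genes are not independent of each other.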
